A study of Homo sapiens with 2 samples.

Results

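The genes described here act at the spindle checkpoint, at the outer kinetochore and in the switching on of the anaphase-promoting complex (APC/C). They are 10 genes of the 19775 measured, namely TTK, BUB1, BUB1B, MAD2L1, NDC80, NUF2, SPC24, SPC25, CDC20 and UBE2C, and they were chosen by name for their roles, with earlier results of these data known. All 17 probe sets that the platform annotation gives to them alone were taken. The RNA came from A549/DDP, a cisplatin-resistant derivative of A549, and from A549 itself, the parental human lung adenocarcinoma line. Each line was hybridised to 1 Affymetrix HG-U133 Plus 2.0 array, so no value has a replicate and no test between the lines was possible. Cells of both lines were grown in routine culture and detached with trypsin before RNA extraction. Whether A549/DDP is a single clone, and whether cisplatin was present at harvest, was not given in the sources used here.

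During mitosis, kinetochores that are not yet held by spindle microtubules recruit the checkpoint proteins. The kinase TTK (also called MPS1) starts the signal there, BUB1 and BUB1B (BUBR1) are brought in, and MAD2L1 (MAD2) changes its shape and captures CDC20. MAD2L1, BUB1B, BUB3 and CDC20 then form a complex that blocks the APC/C, the ubiquitin ligase that marks cyclin B and securin for destruction. The NDC80 complex, made of NDC80, NUF2, SPC24 and SPC25, is the part of the kinetochore that grips microtubules. Once all chromosomes are attached, CDC20 is freed to activate the APC/C, and UBE2C is the ubiquitin-conjugating enzyme that starts chains on its substrates. In cycling cells most of these transcripts are made late in the cycle, in G2 and mitosis.

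The values are log2 signals as deposited by the authors, and the arrays stood at the same scale, with trimmed mean signals of 500.1 on the linear scale on both. The median of each array, 6.18 for A549/DDP and 6.22 for A549, was used as a floor, and a gene at or above it on at least 1 array was called expressed (13159 genes). Ratios of 3′ to 5′ probe sets, which rise as RNA is broken down or copied in part, were uneven between control genes. GAPDH gave 1.02 on the array labelled A549/DDP and 1.05 on the A549 array, while ACTB gave 3.70 on the array labelled A549/DDP and 4.21 on the A549 array. ZNF300, the gene that the study followed, had a log2 signal of 5.76 on the array labelled A549/DDP, under the floor, and 7.59 on the A549 array. Both values come from probe set 228144_at. This runs against the study, which places higher ZNF300 in A549/DDP by its array screen, RT-PCR and Western blotting. A free-text note on the A549/DDP sample speaks of ZNF300 overexpression. The array is therefore called by its label throughout, and every direction below rests on that label. Of 8 epithelial markers 4 were above the floor on both arrays, among them KRT18 at 14.50 on the array labelled A549/DDP and 13.12 on the A549 array, and 2, KRT19 and CLDN4, were under it on both. CDH1, the epithelial cadherin, had 2.52 on the array labelled A549/DDP, under the floor, and 7.30 on the A549 array. EPCAM had 4.68 on the array labelled A549/DDP, also under the floor, and 7.05 on the A549 array. Of 7 immune markers measured 5 were under the floor on both arrays, PTPRC among them. The T cell markers CD3D and CD3E were above it on the array labelled A549/DDP alone, CD3D at 6.66 there and 5.18 on the A549 array, and CD3E at 6.93 there and 5.72 on the A549 array. Of 6 endothelial markers 5 were under the floor on both arrays, and KDR had 7.67 on the array labelled A549/DDP and 6.65 on the A549 array. The part of these markers in the results was not tested.

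All 10 genes were above the floor on both arrays and all 10 had the higher signal on the array labelled A549/DDP. At the 3-fold threshold that the study used, 9 of the 10 were higher, where 2.14% of the 13159 expressed genes were. None of the 10 was at least 3-fold lower, where 2.18% of expressed genes were. Their median log2 difference (array labelled A549/DDP minus A549 array) was 2.63, a fold of 6.19, beside 0.00 over all expressed genes. Both arrays measured RNA of whole cultures, so more cells in mitosis and more of these RNAs per cell cannot be told apart. Genes of DNA replication differed in the same direction, 10 of 14 past 3-fold upward with a median of 1.85, and their part in the result was not tested. A stricter floor, the 75th percentile of each array, replaced the A549 signals of TTK, BUB1, BUB1B, NDC80, NUF2 and SPC25. Their log2 differences were then bounds, among them 1.83 for TTK, 1.84 for BUB1 and 2.42 for BUB1B. The bounds of NDC80, NUF2 and SPC25 were under 3-fold, 0.88 on the log2 scale for SPC25. SPC24 was under this floor on both arrays.

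**Figure D1:**
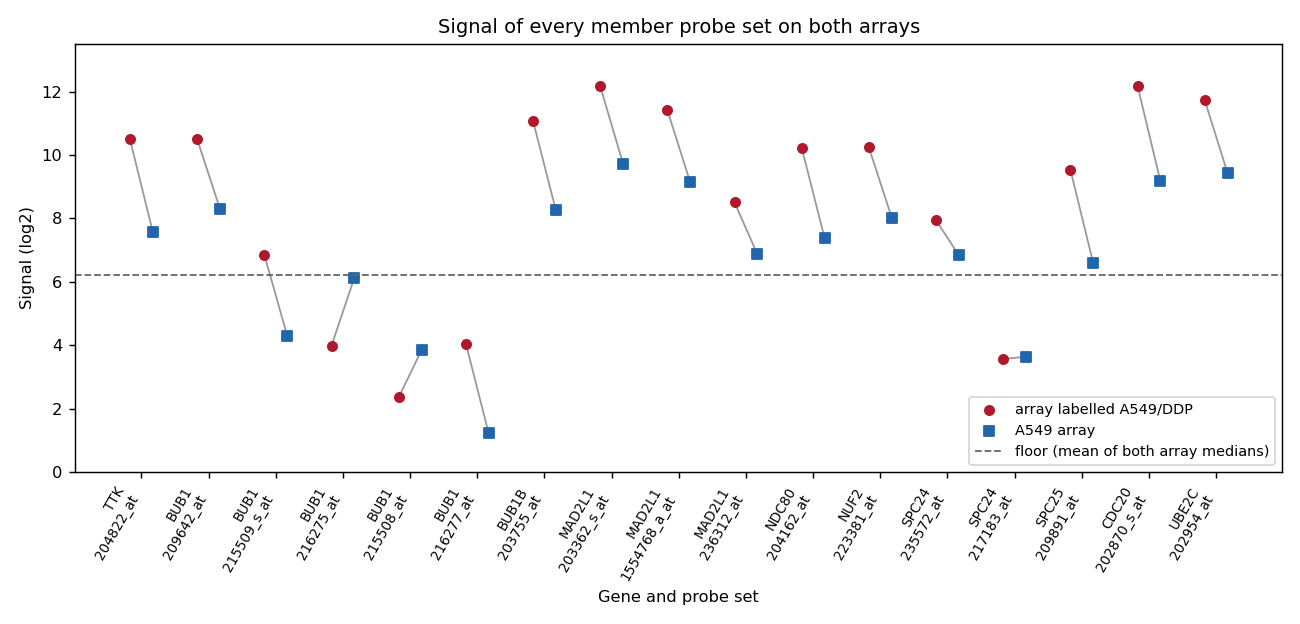
Log2 signal (vertical axis) of the 17 probe sets of the 10 genes (horizontal axis), with a red circle for the array labelled A549/DDP left of a blue square for the A549 array, joined by a line; the dashed line is the mean of the floors of the arrays. All 13 probe sets that reach the floor on at least 1 array are higher on the array labelled A549/DDP, while 4 probe sets of BUB1 and SPC24 lie under the floor on both.

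The checkpoint kinases and MAD2L1 were all past 3-fold. TTK, the kinase at the head of the checkpoint, had 1 probe set, at 10.49 on the array labelled A549/DDP and 7.57 on the A549 array, a fold of 7.58. BUB1B, the inhibitory subunit that holds CDC20 on the APC/C, had signals of 11.08 on the array labelled A549/DDP and 8.26 on the A549 array, a fold of 7.06. These are among the larger differences on the arrays: ranked from the highest of the 13159 expressed genes, TTK stood at 31 and BUB1B at 39.

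BUB1, the kinase that phosphorylates histone H2A at centromeres and is a scaffold for the other checkpoint proteins, had 5 probe sets of unequal worth. The brightest, 209642_at, had a log2 signal of 10.50 on the array labelled A549/DDP and 8.30 on the A549 array, a fold of 4.60. The next, 215509_s_at, had 6.85 on the array labelled A549/DDP and 4.30 on the A549 array, and the A549 value lay under the floor. The other 3 were under the floor on both arrays and carry no direction for the gene. BUB1 ranked 101 by its brightest probe set.

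MAD2L1 offered the closest thing to a repeat within an array, since all 3 of its probe sets were above the floor on both. Probe set 203362_s_at had 12.17 on the array labelled A549/DDP and 9.73 on the A549 array, a difference of 2.44. Probe set 1554768_a_at had 11.41 on the array labelled A549/DDP and 9.14 on the A549 array, a difference of 2.27. The dimmest, 236312_at, had 8.50 on the array labelled A549/DDP and 6.87 on the A549 array, a difference of 1.63, which is still past 3-fold. All 3 therefore had one direction, and the brighter the probe set, the larger the difference. For comparison, 5336 genes had 2 or more probe sets over the floor on both arrays, and the median SD of the difference among probe sets of 1 gene was 0.27, with a 90th percentile of 0.67. This spread is among probe sets of a gene read on the same arrays, and says nothing of the spread between cultures.

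The 4 subunits of the NDC80 complex did not differ equally. NDC80 itself, whose tail and head contact the microtubule, had signals of 10.23 on the array labelled A549/DDP and 7.39 on the A549 array, a fold of 7.15. Its partner NUF2 had 10.24 on the array labelled A549/DDP and 8.03 on the A549 array, a fold of 4.63. SPC25, which anchors the complex to the inner kinetochore together with SPC24, had 9.54 on the array labelled A549/DDP and 6.59 on the A549 array, a fold of 7.71. SPC24 stood apart from its partners and was the only one of the 10 under 3-fold.

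SPC24 was read by 235572_at, at 7.94 on the array labelled A549/DDP and 6.84 on the A549 array, a fold of 2.14. Its other probe set, 217183_at, was under the floor on both arrays (3.57 on the array labelled A549/DDP and 3.64 on the A549 array). The difference of SPC24 was smaller than that of SPC25 by 1.85 on the log2 scale, and smaller than that of NDC80 by 1.74. The A549 signal of SPC25, 6.59, lay nearer the floor than that of SPC24. The value of SPC24 rests on 1 probe set above the floor. Among 1488 expressed genes within 0.5 log2 units of the mean signal of SPC24, 120 had a difference at least as large, itself included. Its value lay inside the central 95% of these genes, from -1.87 to 1.76.

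CDC20 had the largest difference of the 10. The APC/C activator was read by 202870_s_at, with 12.18 on the array labelled A549/DDP and 9.17 on the A549 array, a fold of 8.05. It ranked 21 of 13159, and among 1987 expressed genes of like mean signal, 2 had a difference at least as large, itself included. UBE2C had 11.73 on the array labelled A549/DDP and 9.43 on the A549 array, a fold of 4.92. It ranked 82, and 17 of 2013 genes of like signal were at or above it.

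In order, the log2 differences were 3.01 for CDC20, 2.95 for SPC25, 2.92 for TTK, 2.84 for NDC80 and 2.82 for BUB1B, followed by 2.44 for MAD2L1, 2.30 for UBE2C, 2.21 for NUF2 and 2.20 for BUB1, and last 1.10 for SPC24. The first 5 spanned 0.19 and the next 4 spanned 0.24, both under the median SD of 0.27 among probe sets of a gene, so their order within each stretch is not resolved. The step between these stretches, 0.38, was above that SD and under its 90th percentile. It is a difference between genes that each carry such a spread, so the division into stretches is not resolved either. The step down to SPC24 was 1.10. Apart from SPC24, the 9 genes lay outside the central 95% of genes of like brightness, whose upper ends were between 1.36 and 1.92.

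**Figure D2:**
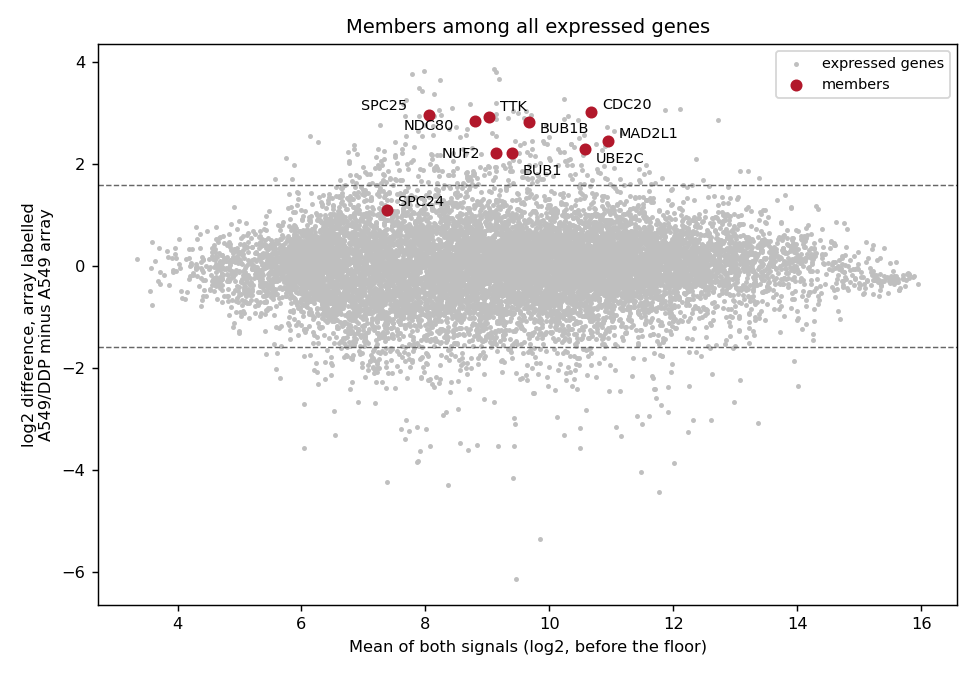
Log2 difference, array labelled A549/DDP minus A549 array (vertical axis), against the mean of both log2 signals before the floor (horizontal axis), for 13159 expressed genes in grey and the 10 genes in red; dashed lines mark 3-fold. The 9 genes at 2.20 and above lie at the upper edge of the cloud, and SPC24, at 1.10, lies within it.

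By the distance between pairs of signals, the expressed genes most like the median of the 10 (10.49 on the array labelled A549/DDP and 8.14 on the A549 array) were POLE2, KIF20A, BRCA1, ELOVL2 and NEK2, at distances from 0.14 to 0.24 log2 units. Likeness over 2 arrays is a weak measure, since it joins genes by brightness and difference alone.

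Promoter sequences were set beside these differences because 9 of the 10 genes were higher together. Many genes of G2 and mitosis carry a cell cycle homology region (CHR), bound by the DREAM and MYB-MuvB complexes, near their start site, often with CCAAT boxes, bound by NF-Y, upstream of it. RefSeq promoter windows (GRCh38.p14, 250 bases before to 50 after the start) were matched for 8 of the 10 genes; TTK and UBE2C were not matched. A CHR, searched as TTTGAA or TTCGAA on both strands, was present in 7 of the 8 windows, in 11.3% of 10638 windows of expressed genes and in 16.6% of 27305 windows in all. The exception was SPC24. Related lists held it in 3 of 5 windows for the chromosomal passenger genes, 4 of 10 for other checkpoint genes, 5 of 15 for outer kinetochore genes and 5 of 15 for APC/C substrates, and in 1 of 13 for APC/C subunits. A shared element TTGGCGG, looked for after the sequences had been read, was present in 5 of the 8 windows and in 5.25% of those of expressed genes. CCAAT, on both strands, was present in 5 of the 8 and in 36.4% of expressed genes. The E2F words TTTGGCGC, TTTCCCGC, TTTCGCGC and TTTGCCGC, on both strands, were present in none of the 8 and in 5.25% of expressed genes. The element TTGGCGG shares the letters TTGGCG with the E2F word TTTGGCGC. These counts therefore do not show that the windows lack sites of E2F type. The words of the CHR and of TTGGCGG did not overlap each other in these windows. A match is a run of letters and was not tested for binding, and its absence says only that the letters are not in the window.

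The stretches of 30 bases around the CHR nearest the start site are shown for 6 genes, to let the CHR and the element behind it be compared, with CHR and TTGGCGG matches in capitals.
BUB1B: gttaaaTTTGAAacTTGGCGGctaggggtg
MAD2L1: gttactTTTGAAacgcTTGGCGGggaagtg
SPC25: actaggTTTGAAatcggaaagTTGGCGGgg
NDC80: gagaatTTCAAATTCGAAcggctTTGGCGG
NUF2: ggcaagTTTGAAaagtgatgacggttgacg
BUB1: ggggtaTTCGAAtcggcggcggcttctagt

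They lie at chr15:40161040-40161069 (plus strand, BUB1B), chr4:120066801-120066830 (minus, MAD2L1), chr2:168890410-168890439 (minus, SPC25), chr18:2571548-2571577 (plus, NDC80), chr1:163321964-163321993 (plus, NUF2) and chr2:110678039-110678068 (minus, BUB1). In BUB1B, MAD2L1 and SPC25 the CHR was followed by TTGGCGG on the same strand. NDC80 had CHR words of both kinds side by side before TTGGCGG. Its TTCAAA is TTTGAA on the other strand, and its TTCGAA reads alike on both strands. In NUF2 the TTGGCGG match lay before the CHR, at -24, outside the stretch shown.

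CDC20, the gene with the largest difference, and SPC24, with the smallest, are shown over the 150 bases before the start site, with CHR and CCAAT matches in capitals.
CDC20: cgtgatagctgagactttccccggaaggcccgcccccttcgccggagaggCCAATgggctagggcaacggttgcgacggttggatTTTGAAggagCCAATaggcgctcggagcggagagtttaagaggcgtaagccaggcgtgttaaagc
SPC24: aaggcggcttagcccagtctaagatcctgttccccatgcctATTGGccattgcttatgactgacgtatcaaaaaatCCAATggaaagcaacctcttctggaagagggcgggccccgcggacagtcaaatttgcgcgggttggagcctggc

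They lie at chr1:43358831-43358980 (plus, CDC20) and chr19:11155783-11155932 (minus, SPC24). In CDC20 a CHR at -65 lay between CCAAT boxes at -100 and -55. SPC24 held CCAAT matches at -109 and -74 in this stretch, and no CHR word.

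**Figure D3:**
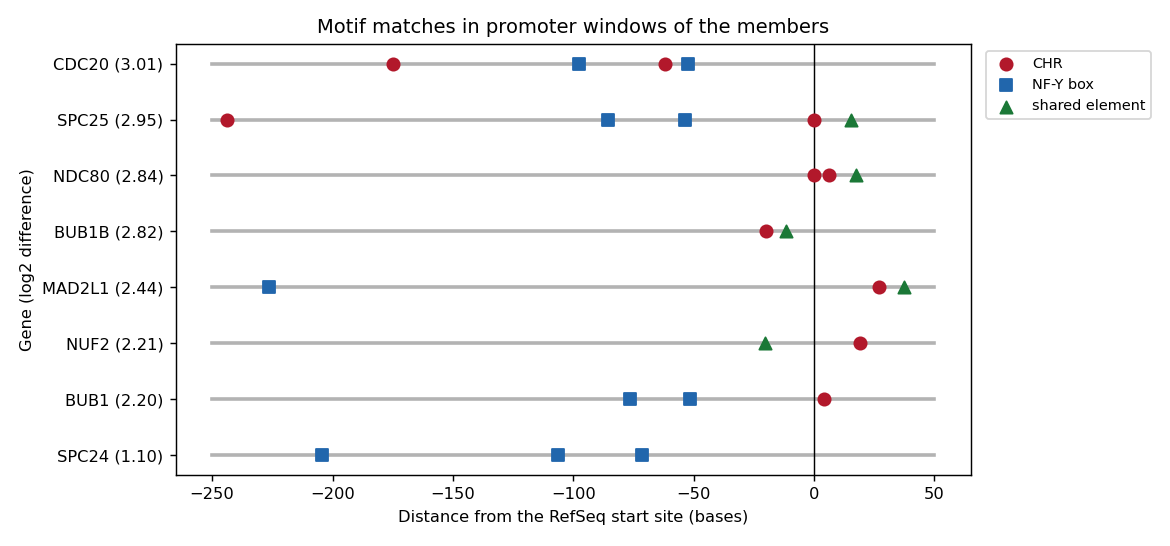
Positions of matches to the CHR (red circles), the NF-Y box (CCAAT, blue squares) and the shared element TTGGCGG (green triangles) in the windows of 8 genes, ordered from the largest log2 difference at the top to the smallest; the horizontal axis is the distance from the RefSeq start site in bases and the value beside each name is the log2 difference. In 6 of the 8 windows a CHR lies within 30 bases of the start site, in CDC20 the nearest lies at -65, and SPC24 has none.

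The other genes of these structures were taken from lists chosen by role and differed unevenly. Of 12 other checkpoint genes, all expressed, 2 were at least 3-fold higher on the array labelled A549/DDP and none at least 3-fold lower, with a median difference of 0.63. SPDL1, which recruits dynein to kinetochores, was 4.15-fold higher, and TRIP13, the ATPase that reopens MAD2L1, 3.78-fold. ZWILCH and KNTC1, subunits of the complex that brings MAD1L1 and MAD2L1 to kinetochores, were 2.87-fold and 2.75-fold higher, under the threshold.

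Some partners of the 10 genes, named here after their values had been seen, had smaller differences, though the size for MAD1L1 is a bound only. Others did not, as KNL1 and ZWINT, given below, differed by 2.68 and 3.05. BUB3, the adaptor shared by BUB1 and BUB1B, had 13.31 on the array labelled A549/DDP and 12.72 on the A549 array, a difference of 0.59, beside 2.20 for BUB1 and 2.82 for BUB1B. Its 4 brightest probe sets were all higher on the array labelled A549/DDP, and the 2 dimmest lay under the floor on that array. MAD1L1, which templates MAD2L1, was under the floor on the A549 array (6.70 on the array labelled A549/DDP and 5.49 on the A549 array), which gives a fold of at least 1.40. MAD2L2, a relative of MAD2L1 that acts in DNA repair, had 10.66 on the array labelled A549/DDP and 10.57 on the A549 array, a difference of 0.09. MAD2L1BP (p31comet), which silences the checkpoint, had 9.67 on the array labelled A549/DDP and 10.04 on the A549 array, a difference of -0.37.

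At the outer kinetochore, 7 of 16 listed genes were at least 3-fold higher on the array labelled A549/DDP and none at least 3-fold lower, with a median difference of 1.02. ZWINT, a partner of the scaffold KNL1, was 8.30-fold higher, the kinesin CENPE 6.42-fold and the corona protein CENPF 5.73-fold. KNL1, on which BUB1 and BUB1B dock once TTK has phosphorylated it, was 6.43-fold higher by its brightest probe set. Dimmer probe sets had 7.33 and 6.66 on the array labelled A549/DDP, and 5.79 and 5.80, under the floor, on the A549 array, which gives a direction but no size. The MIS12 complex joins the NDC80 complex to the chromosome, and its genes, named after their values had been seen, differed by 0.71 for DSN1, 0.40 for NSL1, -0.17 for MIS12 and -0.22 for PMF1. Each of these lay under the smallest difference in the NDC80 complex, 1.10 for SPC24.

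Of 7 genes of the chromosomal passenger complex and its partners, which correct faulty attachments, 6 were expressed and 5 were at least 3-fold higher, with a median difference of 1.73. BIRC5 was 4.67-fold, SGO2 4.04-fold, CDCA8 3.62-fold and the kinase AURKB 3.02-fold higher on the array labelled A549/DDP. INCENP was under the floor on both arrays (5.95 on the array labelled A549/DDP and 5.97 on the A549 array).

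The APC/C itself was nearly level between the arrays. Of 14 listed subunits 13 were measured and expressed, ANAPC1 being not analysed here, and none passed 3-fold in either direction. Their median difference was 0.15, with a range from -0.55 to 0.76. ANAPC7 was 1.70-fold, CDC27 1.52-fold and ANAPC15 1.47-fold higher, and ANAPC16 was 1.47-fold lower. The median difference of the subunits thus lay well under the 3.01 of their activator CDC20 and the 2.30 of their enzyme UBE2C, and no test of this difference was possible.

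The other activator of the APC/C, FZR1 (CDH1 in the older name of the protein), which acts in late mitosis and G1, had no settled direction. Its brightest probe set, 209415_at, had 7.82 on the array labelled A549/DDP and 8.63 on the A549 array, a difference of -0.82. Probe set 209414_at had 8.21 on the array labelled A549/DDP and 7.33 on the A549 array, a difference of 0.88. The other 2 had differences of -0.52 and -0.17. None of the 4 came near the 3.01 of CDC20. UBE2S, which extends the chains that UBE2C starts, had 12.81 on the array labelled A549/DDP and 12.04 on the A549 array, a fold of 1.70. FBXO5 (EMI1), an inhibitor of the APC/C before mitosis, was 3.28-fold higher by its brighter probe set and 3.82-fold by the other. USP37, a deubiquitinase, was 1.59-fold higher. In this list of 8 regulators, 6 were measured, 5 were expressed and 1 was at least 3-fold higher.

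Genes whose proteins the APC/C destroys, and other genes of anaphase and cytokinesis, were higher as a list. Of 17 genes, all expressed, 12 passed 3-fold upward on the array labelled A549/DDP and none downward, and their median was 2.01. TPX2, a spindle assembly factor, was 8.02-fold higher, the ribonucleotide reductase subunit RRM2 7.25-fold, ANLN, of the contractile ring, 6.25-fold and cyclin B1 (CCNB1) 5.23-fold. Securin (PTTG1), the inhibitor of separase, had 12.68 on the array labelled A549/DDP and 11.54 on the A549 array, a fold of 2.20, and was named after its value had been seen. Of 10 control genes none passed 3-fold, and the sign of their median depended on the scale, -0.09 as deposited and 0.07 after quantile normalization.

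**Figure D4:**
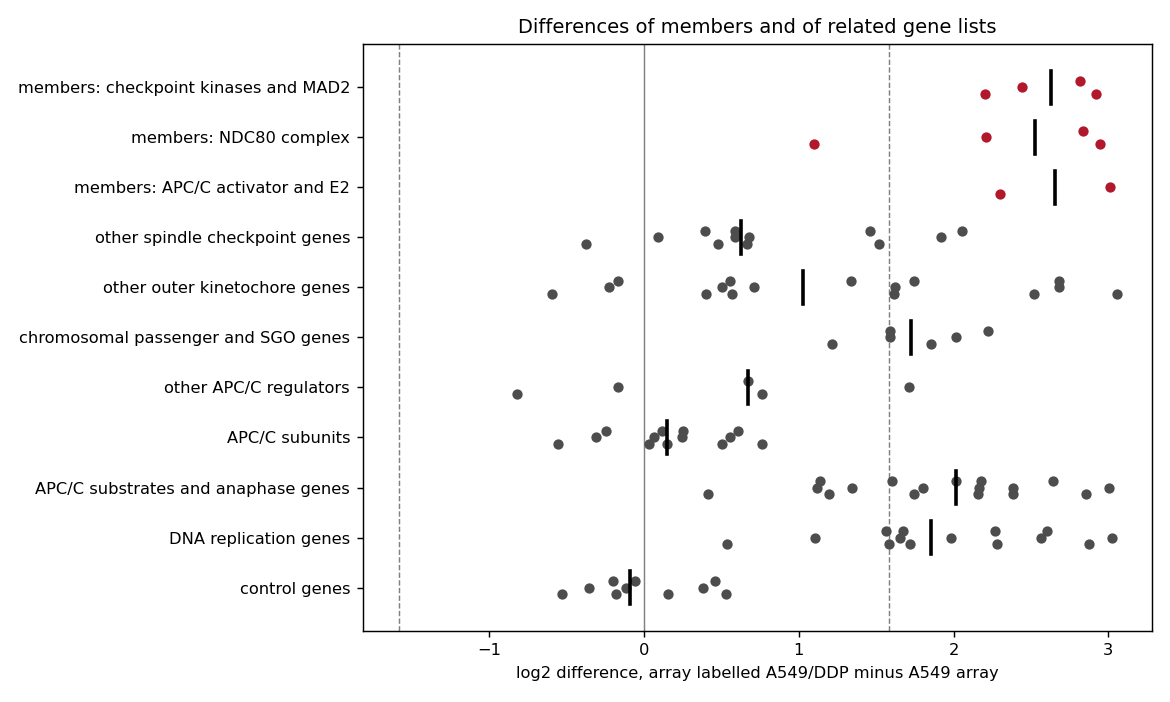
Log2 difference, array labelled A549/DDP minus A549 array (horizontal axis), of each expressed gene in 11 lists (vertical axis), with the 10 genes in red, other lists in grey and a black bar at each median; dashed lines mark 3-fold. The medians of the 10 genes by role are 2.63, 2.52 and 2.65, while that of the APC/C subunits is 0.15.

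The 10 genes lie apart from each other in the genome, and most of their neighbours were under 3-fold in either direction. For each gene the 5 nearest expressed genes on either side, in RefSeq gene order, were taken. The medians of these 10 neighbours ran from -0.30, around SPC24, to 0.16, around BUB1. None of the 100 neighbours reached the difference of its own member, which says little, because 9 of the 10 members ranked within the first 101 of 13159 genes. Of the 100 neighbours 3 passed 3-fold upward and 2 downward, beside 2.14% and 2.18% of all expressed genes. The 3 were CCNA2 (2.16) beside MAD2L1, TYMS (1.85) beside NDC80 and KNSTRN (1.61) beside BUB1B, named after their values had been seen. CCNA2 encodes cyclin A2, TYMS thymidylate synthase, and KNSTRN a protein of the kinetochore and spindle that is also in the list of outer kinetochore genes.

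**Figure D5:**
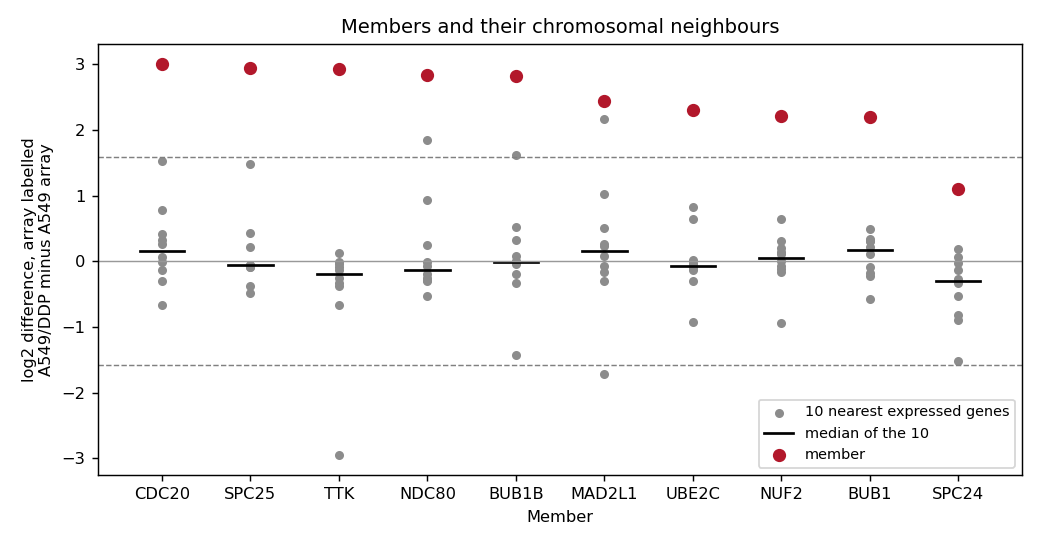
Log2 difference, array labelled A549/DDP minus A549 array (vertical axis), of each of the 10 genes (red), of the 10 expressed genes nearest to it on its chromosome (grey) and their median (black bar); dashed lines mark 3-fold. Every red point is above all grey points of its column, and the medians lie between -0.30 and 0.16.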

How the data were processed

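RNA of A549/DDP and A549 was measured on 1 HG-U133 Plus 2.0 array each. The authors deposited 1 log2 signal for each of 54675 probe sets and array. MAS5 and affy are the tools listed in the submitters' processing notes, with versions not given in the sources used here, while the methods of the study name SCAN with UPC. The values had the equal trimmed means (2% off each end) that MAS5 scaling gives, and were used as deposited. MAS5 subtracts mismatch signal, so dim values scatter widely. A further table holds the authors' own comparison (a fold change, its absolute size and its direction) of A549-ZNF300 with A549-LV5. Its 4 columns of signals and calls match no sample label, and the table was not used here.

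Of the probe sets, 41091 had 1 gene, and 41037 of these were matched to RefSeq symbols (GRCh38.p14); 1801 had several genes and were not named. Each gene was represented by the probe set whose mean over both arrays was highest. The floor was the median of each array. Lower values were set to it, which makes the fold a bound. Differences were computed in Python 3.11.15 with pandas 2.3.3, and the steps were checked on simulated data. That check put shifts only on genes brighter than most of the 10 were on the A549 array, so it does not cover signals near the floor. With 1 array per line there is no replicate error and no p-value, and the number of arrays limits the precision. The rule for named genes took the 10 members, up to 4 genes with the largest difference in each pathway list, up to 3 markers per cell type list, ZNF300, and the 5 genes nearest in pattern. Other genes named were chosen after their values were seen. They include partners of the members, chromosomal neighbours, further epithelial markers, INCENP, PTTG1, PLK1 and POLA1. The members and the lists were chosen with earlier results of these data known. Alternatives were median centring, quantile normalization, loess (span 0.3), leaving out the floor or moving it to the 25th or 75th percentile, other choices of probe set, and thresholds of 2-fold and 5-fold.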

Additional observations from a re-analysis of the deposited data

How the results depend on the processing

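In all 86 values of a member under an alternative, the member stayed higher on the array labelled A549/DDP. The number at least 3-fold higher ranged from 6 to 9, SPC24 never among them, and none was 3-fold lower. At 2-fold 10 passed and at 5-fold 6. Their median, 2.63, was 1.84 with the floor at the 75th percentile, which raises dim A549 values, and 2.30 without probe sets marked _x_at or _s_at, which leaves out CDC20 and reads MAD2L1 by another probe set (2.27). BUB1 was at least 0.63 when read by the dimmest of its usable probe sets, a bound that does not settle whether it passed 3-fold. With the median over probe sets BUB1 and SPC24 were under the floor on both arrays. Counts over all genes, 281 higher and 287 lower, were 1720 and 1935 without a floor, 673 and 860 with the floor at the 25th percentile, 127 and 122 at the 75th, 807 and 974 at 2-fold, and 79 and 74 at 5-fold. Medians of lists moved too. Of 132 medians of the members, the lists and all genes under alternatives, 102 stayed within the SD of 0.27. The outer kinetochore median, 1.02, was 0.63 with the floor at the 75th percentile. It was 0.74 by the median over probe sets and 0.64 by the dimmest. That of the other APC/C regulators, 0.67, was -0.17 over 3 genes without probe sets marked _x_at or _s_at. No paired analysis was possible because each line has 1 array. Signals near the floor, as for SPC24 and SPC25 on the A549 array, limit what the arrays resolve.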

Other observations

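Genes of DNA replication, which act before mitosis, differed in the same direction. All 14 listed genes were expressed, 10 passed 3-fold upward on the array labelled A549/DDP and none downward, and the median difference was 1.85, beside 2.63 for the 10 checkpoint, kinetochore and APC/C genes. Cyclin E2 (CCNE2), of the G1 to S transition, was 8.15-fold higher, the helicase subunits GINS2 7.35-fold and GINS1 6.07-fold, and MCM2 5.91-fold. The polymerase subunit POLA1 had 9.34 on the array labelled A549/DDP and 8.81 on the A549 array, a fold of 1.45. Whether the share of cells in each phase differed between the cultures was not tested.

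Markers of alveolar type II cells were mostly dim on both arrays. SFTPC was under the floor on both, at 5.38 on the array labelled A549/DDP and 4.60 on the A549 array, and SFTPB had 8.01 on the array labelled A549/DDP and 7.70 on the A549 array.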
